A study of Mus musculus with 3 samples.

Results

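The oocyte secreted factors and zona genes described here were *Gdf9*, *Bmp15*, *Zp1*, *Zp2*, *Zp3*, *Oosp1* and *Dppa3*, 7 of the 24958 genes in a single-cell RNA sequencing (scRNA-seq) table of mouse ovary. They were chosen by name as oocyte genes, and the cells that hold them were found by a rule: a cell counts when 3 or more of the 7 genes have at least 1 unique molecular identifier (UMI, the tag that marks 1 captured RNA molecule). Of 31776 cells, 11 met this rule, or 0.0346% (exact 95% interval 0.0173 to 0.0619%). These 11 cells held 1845 of the 2345 UMIs of the 7 genes, or 78.7% (77.0 to 80.3%), while they held 0.145% of all UMIs in the table. The share belongs to the rule that chose the cells and is a description. Summed as UMIs per 10000 of each cell, where deep cells weigh no more than shallow ones, the share was 38.3%.

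The oocyte is the germ cell at the centre of the ovarian follicle, surrounded by granulosa cells (GCs) and, outside the follicle wall, by theca cells and stroma. It secretes GDF9 and BMP15, a pair of TGF-β family ligands that act on GCs through BMPR2 with type I receptors and SMAD proteins, and that maintain cumulus GC growth, metabolism and, around ovulation, cumulus expansion. It also builds the zona pellucida, the glycoprotein coat made in the mouse of ZP1, ZP2 and ZP3, to which sperm bind and which ZP1 cross-links. *Oosp1* encodes an oocyte secreted protein, and *Dppa3* (Stella) a maternal protein that protects the methylation of the maternal genome in the zygote. In the mouse, transcription of the zona genes depends on FIGLA, a basic helix-loop-helix factor of oocytes.

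The series holds 3 10x Chromium libraries of whole mouse ovary, taken 0, 1 and 6 h after injection of human chorionic gonadotropin (hCG), with 1 library at each time. The study describes its scRNA-seq mice as prepubertal, of the Kunming strain and aged 21 days, given pregnant mare serum gonadotropin (PMSG, an FSH-like hormone that makes follicles grow) 48 h before the ovaries were taken. It does not say which of the 3 hCG times this covers, and the number of mice per library is unknown. All cells stand in 1 table, and their barcodes end in 1, 2 or 3. No source ties an ending to a library, so the endings are called barcode sets, no time is given to any set, and no test between them was possible. The sets held 10384, 9917 and 11475 cells, with medians of 6093, 6352 and 6524 UMIs per cell. All intervals below are 95% intervals that cover counting error only. Those of shares and ratios are exact. Those of means over cells are exact intervals of the summed UMIs, rescaled to the mean, except that a count of 0 has a limit of 3 counts. They can be too narrow where UMIs of shallow cells weigh most. Between the sets, 112 barcodes recurred, none of them among the 11 cells.

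Barcode set 1 held 3 of the 11 cells (called 1a to 1c, deepest first), set 2 held 3 (2a to 2c) and set 3 held 5 (3a to 3e). As shares of cells these were 0.0289% (0.00596 to 0.0844%), 0.0303% (0.00624 to 0.0884%) and 0.0436% (0.0141 to 0.102%), and the intervals overlapped. The cells were deep, with 1259, 31104 and 75488 UMIs as lowest, median and highest, against a median of 6347 in the other 31765 cells. Of 10 further oocyte genes kept out of the rule (*Ooep*, *Nlrp5*, *Padi6*, *Tle6*, *Zar1*, *Npm2*, *Ddx4*, *Dazl*, *Gtsf1* and *Figla*), 10 of the 11 cells had 7 or more above 0. No other cell in the table had more than 4.

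Cell 3d went against the oocyte label. It met the rule with 1 UMI of *Gdf9*, 1 of *Zp2* and 2 of *Dppa3*, and it had 1 of the 10 further oocyte genes. Per 10000 it carried 20.2 UMIs of theca markers, 17.4 of smooth muscle markers and 13.9 of stroma markers. The pooled values outside the 11 cells were 64.6, 15.5 and 19.7. Cells 1a and 2b carried more UMIs of theca markers than cell 3d, 101 and 41.8. Without cell 3d, 10 cells held 78.5% of the UMIs of the 7 genes. The other cell with few UMIs, 3e, had 1259 in all, and it still showed 9 of the 10 further genes and no UMI of any granulosa, theca, stroma or endothelial marker. Just outside the rule, 11 cells had exactly 2 of the 7 genes, with 2 UMIs of them as lowest and median and 5 as highest. One of these, in set 1, held 2 UMIs of *Oosp1* and 3 of *Dppa3* in a total of only 625.

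Of the zona transcripts, which are part of the rule, *Zp2* was the most abundant. *Zp2* gave 25, 31 and 47 UMIs in cells 1a to 1c, 40, 3 and 7 in cells 2a to 2c, and 60, 56, 53, 1 and 1 in cells 3a to 3e. It was the one zona gene above 0 in all 11. As UMIs per 10000 it ranged from 0.695 in cell 3d to 20.2 in cell 3c, with a median of 9.63.

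*Zp3*, which encodes the zona protein first bound by sperm in the classical model, was the next in UMIs. Its counts were 11, 10 and 17 for cells 1a to 1c, then 10, 3 and 3 for cells 2a to 2c, and 33, 30, 32, 0 and 2 for cells 3a to 3e. *Zp1*, in the same order of cells, was lower, with 7, 6 and 9 UMIs, then 6, 0 and 3, and then 6, 8, 4, 0 and 0. Over the 11 cells the zona genes came to 324 UMIs for *Zp2*, 151 for *Zp3* and 49 for *Zp1*. A UMI counts 1 captured molecule whatever the transcript's length, and capture can differ between genes.

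As a share of both genes, *Zp3* made up 27.0% (19.8 to 35.1%) of the *Zp2* and *Zp3* UMIs of set 1. The value was 24.2% (14.5 to 36.4%) for set 2 and 36.2% (30.4 to 42.3%) for set 3. In set 1 the 3 cells gave 30.6, 24.4 and 26.6%. In set 3 the 3 deep cells gave 35.5, 34.9 and 37.6%, each above the 3 cells of set 1. Cells 3d and 3e gave 0 and 66.7%, from 1 and 3 UMIs of the 2 genes. The intervals of the sets and of the cells overlapped, and 3 cells of a set are not replicates of it.

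The *Zp3* promoter is shown because E-box motifs in it are the known kind of site for FIGLA, whose own transcript lay in the same cells. The window is chr5:135979855-135980094 on the plus strand of GRCm38.p6, from RefSeq. It ends 10 bases short of the RefSeq start, and the capitals mark every CANNTG, the E-box letters, on either strand.
Zp3: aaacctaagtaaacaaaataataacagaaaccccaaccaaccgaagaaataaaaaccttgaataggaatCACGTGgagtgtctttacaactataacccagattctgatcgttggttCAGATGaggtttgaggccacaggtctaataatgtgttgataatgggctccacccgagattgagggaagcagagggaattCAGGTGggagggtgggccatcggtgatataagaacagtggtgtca
It held 3 CANNTG matches, whose first bases lie 181, 134 and 55 bases before the start. The one at 181 is also a CACGTG, a stricter form within CANNTG. Of the 32851 RefSeq promoter windows of the same 240 bases, 65.0% held a CANNTG and 5.69% a CACGTG, so the looser letters are common and a match is only a description.

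The *Bmp15* window, chrX:6320735-6320974 on the minus strand of the same build, is shown beside it because *Bmp15* was the member with a different spread outside these cells. The capitals again mark CANNTG.
Bmp15: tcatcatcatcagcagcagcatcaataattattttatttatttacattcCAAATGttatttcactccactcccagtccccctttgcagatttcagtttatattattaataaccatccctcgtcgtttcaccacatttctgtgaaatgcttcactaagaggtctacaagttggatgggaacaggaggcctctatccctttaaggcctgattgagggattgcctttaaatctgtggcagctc
It held 1 CANNTG, 201 bases before the start, and CACGTG was not in it. The letters TAATTG, a homeobox site of the kind bound by NOBOX, were in neither window and in 2301 of all windows. The letters TATAAA were found for *Bmp15* on the strand opposite to the one printed, 155 bases before the start, and 12.1% of all windows held them on either strand. Every motif was searched on both strands. Of the 7 genes, 3 were in the promoter set used (*Oosp1* was the other), and a match or its absence says nothing of binding in these cells.

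*Dppa3* gave more UMIs in these cells than the other 6 genes together, 1268 of 1845. It had 98, 232 and 139 UMIs in cells 1a to 1c, 177, 35 and 26 in cells 2a to 2c, and 251, 213, 90, 2 and 5 in cells 3a to 3e. Per 10000 UMIs, the lowest value was 1.39 in cell 3d, the median 38.7 and the highest 72.1 in cell 1b. *Dppa3* had the most UMIs of the 7 genes in each of the 11 cells, from the shallow cell 3e to the deepest cell 2a.

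The secreted ligands were lower than *Zp2*, *Zp3* and *Dppa3*, with 44 UMIs of *Gdf9* over the 11 cells, close to the 49 of *Zp1*, and 8 of *Bmp15*. *Gdf9* gave 3, 3 and 7 UMIs over cells 1a to 1c, then 8, 0 and 0 over cells 2a to 2c, and 14, 5, 3, 1 and 0 over cells 3a to 3e. *Bmp15* gave 1, 1 and 2, then 3, 0 and 0, and then 1 UMI in cell 3a with the other 4 cells of set 3 at 0. The 3 cells without *Gdf9* (2b, 2c and 3e) were 3 of the 4 shallowest of the 11, and all 3 also lacked *Bmp15*.

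Averaged over the 11 cells, *Gdf9* stood at 0.923 UMIs per 10000 (0.671 to 1.24) and *Bmp15* at 0.159 (0.0688 to 0.314), beside 9.08 (8.12 to 10.1) for *Zp2* and 36.1 (34.1 to 38.1) for *Dppa3*. *Gdf9* thus made up 2.38% (1.74 to 3.19%) of the UMIs of the 7 genes in these cells. *Oosp1* was nearly absent, with 1 UMI in cell 3a and 3 in the whole table.

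**Figure D1:**
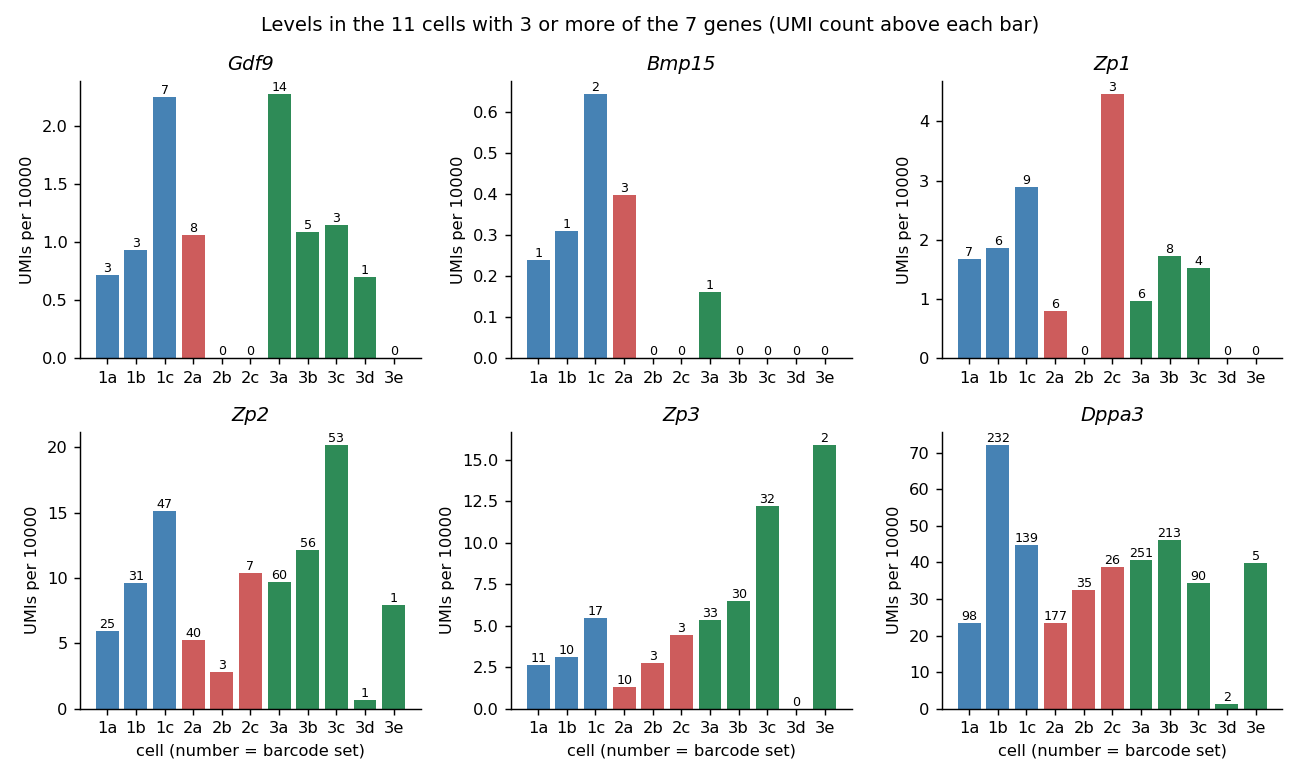
Bars show UMIs per 10000 of 6 of the genes in each of the 11 cells, coloured by barcode set (1 blue, 2 red, 3 green), with the UMI count above each bar. *Zp2* and *Dppa3* were above 0 in all 11 cells, *Gdf9* and *Zp1* in 8 and *Bmp15* in 5, and cell 3d was the lowest for *Zp2* and *Dppa3*.

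Because the rule uses the 7 genes themselves, each gene was also described in cells chosen by 3 or more of the other 6. *Zp1* then had 90.7% (79.7 to 96.9%) of its UMIs in the chosen cells, *Zp2* 89.6% (86.0 to 92.6%), *Zp3* 84.9% (78.6 to 89.9%) and *Dppa3* 88.5% (86.7 to 90.1%). *Gdf9* had 12.3% (9.01 to 16.1%) and *Bmp15* 34.8% (16.4 to 57.3%). So with its own counts taken out of the choice, *Gdf9* still had most of its UMIs elsewhere, and its interval lay far below those of the zona genes and *Dppa3*. Its level was nonetheless higher in the 11 cells of the full rule, which uses it: pooled, 98.8-fold that of all other cells. For *Bmp15* the value was 368-fold and for *Zp2* 6979.9-fold.

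Markers of other cell types were low in the 11 cells with named exceptions. The 10 GC markers summed to 7.28 UMIs per 10000 over the pooled 11 cells, against 56.6 in all other cells, and 9 of the 10 were above 0. The 7 theca markers summed to 19.0 against 64.6, and the 8 stroma markers to 1.04 against 19.7. Of the theca markers 6 of 7 were above 0, of the stroma markers 6 of 8 and of the endothelial markers 5 of 8. The theca sum was uneven: cell 1a carried 101 UMIs per 10000, cell 2b 41.8, cell 3d 20.2 and cell 2a 13.6, and the other 7 cells carried less than 10. The highest GC sum was 18.5, in cell 2a. Whether these cells had other cells attached was not tested. The 10 further oocyte genes summed to 90.2 against 0.127. The 11 cells formed no cluster of their own. With the oocyte genes left out of the clustering, 1b and 1c fell in an unnamed cluster of 151 cells, 3a, 3b, 3c and 3e in an unnamed one of 153, 2c in an unnamed one of 402, and the other 4 in clusters named stroma-like (1a, 3d), granulosa-like (2a) and luteal-like (2b). The unnamed clusters had low median totals (881, 1159 and 1193 UMIs) and were led by mitosis genes such as *Birc5* and *Ube2c*.

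Other oocyte genes shared the pattern of the zona genes in part. Of 36 genes in 7 oocyte lists with at least 50 UMIs, 15 had 50% or more of their UMIs in the 11 cells, where 0.334% of all 16488 genes with at least 50 UMIs did, or 55 genes. The lists and the members were chosen as oocyte genes with earlier results of these data known, so nothing is tested by this count. The median over the 36 genes was 22.9%.

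In the subcortical maternal complex, a protein assembly of the egg needed for early cleavage, 3 of 6 genes passed. *Padi6* had 95.4% (92.4 to 97.5%) of its UMIs in the 11 cells, *Nlrp5* 89.5% (86.0 to 92.4%) and *Ooep* 80.4% (78.5 to 82.1%). *Tle6*, with 4.08%, and *Zbed3*, with 1.43%, lay mostly in other cells. *Ooep* was the most abundant of the 10 further genes, with 610 UMIs in cell 1b alone, more than the *Dppa3* of any cell.

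Among maternal-effect and egg genes, 4 of 8 passed: *Oas1d* at 97.0%, *Nlrp14* at 92.2%, *Btg4*, which recruits the machinery that clears maternal mRNA, at 82.9%, and *H1foo*, the oocyte linker histone, with 30 of 60 UMIs (36.8 to 63.2%). *Uchl1*, a deubiquitinase abundant in oocytes and neurons, had 803 UMIs in the 11 cells and 10999 elsewhere. *Bcl2l10* had 6.82%, with 66 of its 82 other UMIs in granulosa-like cells.

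Of the oocyte transcription factors, 4 of 6 passed. *Figla* had 92.0% (86.7 to 95.7%), *Sohlh1* 87.7%, *Lhx8* 84.6% and *Nobox* 68.2% (58.6 to 76.7%), and *Sohlh2*, under the minimum with 42 UMIs, had 40 of them there, and *Tbpl2* 4 of 5. *Pou5f1*, the pluripotency factor that oocytes keep, had 15.6%, and *Taf4b*, a TFIID subunit of GCs and germ cells, 0.395% of 5318. *Figla* gave 14, 28 and 7 UMIs in cells 1a to 1c, 19, 4 and 8 in cells 2a to 2c, and 25, 22, 20, 0 and 2 in cells 3a to 3e, absent from cell 3d alone.

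Of the germline RNA-binding and transposon-control genes, 4 of 8 passed: *Mael* at 91.4%, *Gtsf1* at 91.0%, *Tdrd1* at 79.0% and *Dppa5a* at 77.8%. The germ cell markers *Ddx4* and *Dazl* did not, at 4.76% and 22.1%, nor did *Tdrkh*, a piRNA pathway gene, at 1.16%. *Ddx4* and *Dazl* were above 0 in 10 of the 11 cells, yet *Ddx4* had 704 of its 820 other UMIs in stroma-like cells and *Dazl* 553 of its 588 in granulosa-like cells, and of the other *Ddx4* UMIs 724 were in set 3.

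None of 3 meiotic genes with enough UMIs passed. *Plat* and *Pde3a* had 0.429 and 0.519%, and *Gpr3*, whose receptor keeps the oocyte in meiotic arrest, had none of its 218 UMIs in the 11 cells. Under the minimum, *Mos*, the kinase of the second meiotic arrest, had 21 of 29 UMIs there and *Wee2* 10 of 14. *Fbxo43*, also under it, had 3 of 23 and *Ccnb3* none of 3. None of 2 genes of the surface, zona and fertilization list passed, and none of 3 of the list of other secreted or membrane proteins. *Cd9*, the egg tetraspanin needed for sperm fusion, had 0.390% of 19755, *Bmp6* 0.0965% of 2073, *Kit* 4.47% of 2707 and *Gja4*, the connexin of oocyte junctions, 1.51% of 4360. *Tmem95* had none of 130 and *Fgf8* none of 17. Under the minimum, *Astl* (ovastacin, the protease that cleaves ZP2 after fertilization) had 15 of 19 there. *Izumo1r*, the egg receptor of the sperm protein IZUMO1, had 9 of 14, and *Zp3r* had none of 2. *Oosp2*, the neighbour of *Oosp1* on chromosome 19, had all 6 of its UMIs in 4 of the 11 cells.

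**Figure D2:**
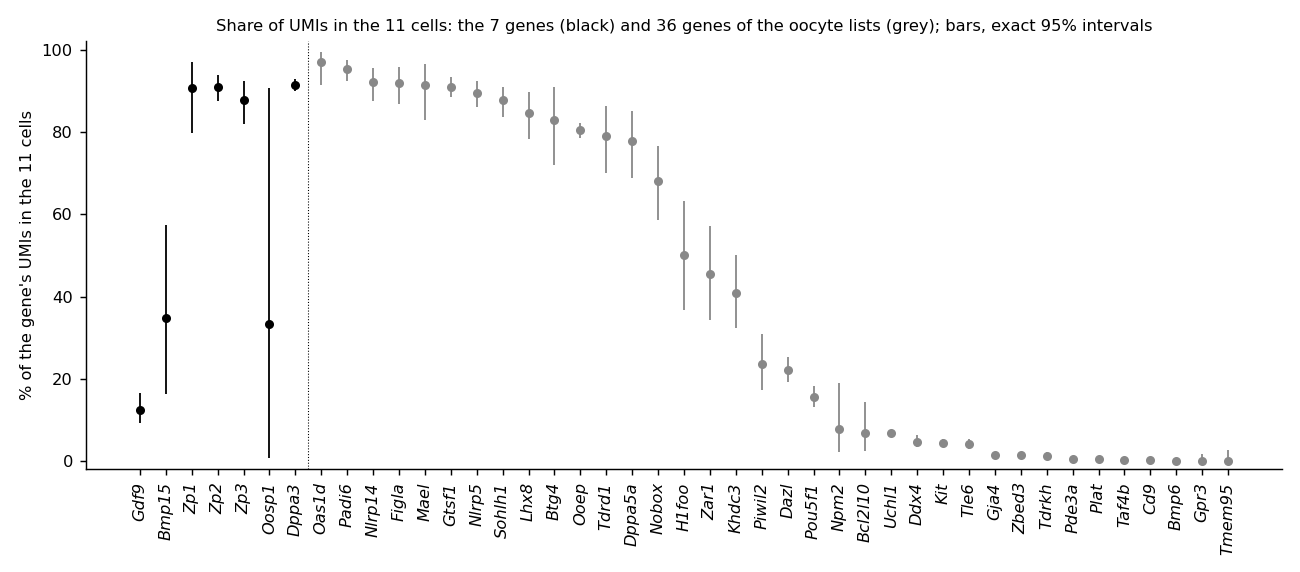
Points show the percentage of each gene's UMIs that lay in the 11 cells, for the 7 genes in black and for 36 genes of the oocyte lists with at least 50 UMIs in grey, and bars are exact 95% intervals. *Zp1*, *Zp2*, *Zp3* and *Dppa3* lay between 87.8 and 91.5%, level with *Gtsf1* and *Figla*, while *Gdf9* at 12.5% lay near *Pou5f1*, with intervals that overlapped.

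Beyond the members and the lists, the 15 genes with the highest share of UMIs in the 11 cells, among genes with at least 50, ranged from 84.1 to 100%. *Mov10l1*, a helicase of the piRNA pathway, had all 53 of its UMIs there, in 7 cells. *Olfr976* had 49 of 50, *Esrp1*, a splicing factor, 57 of 60, *Nlrp4f* 127 of 139 and *Tcl1*, an AKT cofactor of oocytes, 140 of 160. *Khdc1c* had 130 of its 160 UMIs inside from set 1 and 9 from set 3, where *Tcl1* had 31 and 90. The others were *E330017A01Rik*, *Cnpy1*, *Cccd201*, *Cpb2*, *Mageb4*, *Oas1h*, *Dcpp1*, *2010001K21Rik* and *Rpl39l*.

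Outside the 11 cells, 470 cells held 500 UMIs of the 7 genes, and the make-up was different. *Gdf9* was 61.4% (57.0 to 65.7%) of these UMIs and *Dppa3* 23.6% (19.9 to 27.6%), where inside they were 2.38 and 68.7%. For every 100 UMIs inside, *Zp1* had 10.2 outside, *Zp2* 9.88, *Zp3* 13.9 and *Dppa3* 9.31, a narrow range. *Bmp15* had 188 and *Gdf9* 698. Gene by gene, the other cells held 1 UMI each for *Zp1*, *Zp2*, *Zp3* and *Bmp15*, never 2, and at most 3 for *Gdf9* and 4 for *Dppa3*.

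*Gdf9* outside these cells was spread thinly over most classes. Its 307 UMIs lay in 300 cells, with 138 UMIs in granulosa-like, 88 in stroma-like, 39 in theca-like and 15 in smooth muscle-like cells. As means of UMIs per 10000, the unnamed cells had 0.0187 (0.0109 to 0.0300), theca-like 0.0163 (0.0116 to 0.0222), granulosa-like 0.0162 (0.0136 to 0.0192), stroma-like 0.0160 (0.0128 to 0.0197), smooth muscle-like 0.0152 (0.00853 to 0.0251) and myeloid-like 0.0103 (0.00213 to 0.0302). These 6 neighbours in the order overlapped in their intervals. Luteal-like cells, at 0.00277 (0.000898 to 0.00645), and endothelial-like cells, at 0.000910 (0.000110 to 0.00329), came next, and both overlapped each other and myeloid-like cells. The 20 epithelial-like cells had no *Gdf9* UMI, with an interval to 0.134 that covers all the other classes.

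The low endothelial value rested on 2 UMIs in 1616 cells. As summed UMIs over summed totals, granulosa-like cells stood 8.06-fold (2.19 to 67.2) above endothelial-like cells and theca-like cells 7.88-fold (2.04 to 67.4). With each cell thinned to 3000 UMIs, 0.373% (0.273 to 0.497%) of granulosa-like cells had a *Gdf9* UMI. The share was 0.417% (0.292 to 0.577%) of stroma-like and 0.498% (0.258 to 0.869%) of theca-like cells. Of 1325 endothelial-like cells 0 did, with an interval to 0.278% that overlapped those of granulosa- and theca-like cells but not that of stroma-like cells. The thinning left out 472 granulosa-like and 291 endothelial-like cells, whose classes had medians of 6423.5 and 5196.5 UMIs.

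Between barcode sets, *Gdf9* is given first for granulosa-like cells, which had the most of its UMIs outside the 11 cells. The mean was 0.00559 (0.00326 to 0.00895) for set 1, whose interval overlapped neither the 0.0278 (0.0216 to 0.0354) of set 2 nor the 0.0166 (0.0125 to 0.0217) of set 3. Pooled, set 2 was 4.57-fold (2.65 to 8.31) above set 1 and set 3 was 2.48-fold (1.42 to 4.57) above it. Of 14712 genes with at least 20 UMIs, 7.74% were at least 2-fold higher in set 2 than in set 1, and 10.4% of 15100 were at least 2-fold higher in set 3 than in set 1. After thinning, the share of granulosa-like cells with a UMI was 0.127% (0.0412 to 0.296%) in set 1. It was 0.823% (0.552 to 1.18%) in set 2, still apart, and 0.246% (0.127 to 0.429%) in set 3, whose interval now overlapped that of set 1.

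In stroma-like cells *Gdf9* had means of 0.0256 (0.0180 to 0.0353), 0.0122 (0.00780 to 0.0181) and 0.0111 (0.00733 to 0.0162) in sets 1 to 3, and pooled, set 3 was at 0.470 (0.275 to 0.793) of set 1 and set 2 at 0.694 (0.397 to 1.19). After thinning, the stroma-like shares overlapped in all sets, at 0.670% (0.391 to 1.07%), 0.292% (0.118 to 0.602%) and 0.324% (0.167 to 0.565%). Smooth muscle-like cells were at 0.0283 (0.00918 to 0.0660) in set 1 and 0.0189 (0.00863 to 0.0358) in set 2, and at 0.00136 with an interval to 0.00755 in set 3, where they had 1 UMI. Their thinned shares also overlapped, at 0.923% (0.191 to 2.67%), 0.372% (0.0451 to 1.34%) and 0% (to 0.815%). Theca-like cells, at 0.0138, 0.0221 and 0.0166, had intervals that overlapped in all sets. Since no source ties a set to a library, a set difference cannot be told apart from a difference of library.

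Within the granulosa-like class, a cluster of 1028 cells in set 2 had the highest mean of *Gdf9*, 0.0487 (0.0328 to 0.0695), from 30 UMIs. Clusters of 1961 cells in set 3, at 0.0302 (0.0201 to 0.0437), and of 498 and 432 cells in set 2, at 0.0293 (0.0127 to 0.0578) and 0.0252 (0.0121 to 0.0464), followed, and their intervals overlapped that of the first.

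*Gdf9* (chr11:53431023-53437904, plus strand, GRCm38) lies head to head with *Uqcrq*, a gene of mitochondrial complex III on the opposite strand. In the GENCODE annotation 191 bases lie between them, and in RefSeq the 2 gene models overlap by 58 bases. *Uqcrq* was abundant, with 91070 UMIs in the table and 149 in the 11 cells. In granulosa-like cells its pooled level was 3.60, 3.49 and 4.92 UMIs per 10000 in sets 1 to 3. *Gdf9* on the same pooled scale was 0.00548, 0.0250 and 0.0136 in granulosa-like cells. Over all sets *Uqcrq* was at 4.11 in granulosa-like, 5.18 in theca-like, 3.07 in smooth muscle-like, 2.85 in stroma-like and 2.78 in endothelial-like cells, and *Gdf9* at 0.0142, 0.0138, 0.0157, 0.0137 and 0.00176 in the same order. Within sets, endothelial-like cells had 2.23, 2.49 and 4.06 of *Uqcrq* and stroma-like cells 1.87, 1.72 and 4.16, so the lowest class was not the same in every set. The part of *Uqcrq* in the *Gdf9* counts of other cells was not tested.

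*Bmp15* outside the 11 cells lay chiefly in endothelial-like cells. Of its 15 UMIs, each in a cell of its own, 10 were in these cells, or 66.7% (38.4 to 88.2%), while the class held 4.75% of all UMIs of the other cells. Of these 10, 7 came from set 2, 2 from set 3 and 1 from set 1. The other 5 were single UMIs in granulosa-like, theca-like, stroma-like, smooth muscle-like and unnamed cells. Pooled, endothelial-like cells were 40.1-fold (12.5 to 149) above all other classes together. In set 2 the 7 UMIs of endothelial-like cells stood beside 2 in all other classes, with a lower bound of 9.53-fold for the ratio of levels, and in set 3 the 2 UMIs stood beside 3, with a lower bound of 1.67-fold.

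Of 19600 genes with at least 10 UMIs outside the 11 cells, 2.06% had 50% or more of these in endothelial-like cells. The same cells had 2 UMIs of *Gdf9* and held 2 of the 176 UMIs of *Zp1*, *Zp2*, *Zp3* and *Dppa3*. After thinning, 3 of 1325 endothelial-like cells had a *Bmp15* UMI, or 0.226% (0.0467 to 0.660%), and 1 of 12348 granulosa-like cells.

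*Bmp15* (chrX:6314107-6320721, minus strand) has *Shroom4*, a gene of the actin cytoskeleton on the plus strand, as its nearest protein-coding neighbour, 79132 bases away. *Shroom4* had 312 of its 823 UMIs in endothelial-like cells, at 0.274 UMIs per 10000 against 0.0223 in the rest, and 2 in the 11 cells. Its part in the *Bmp15* counts was not tested. Of the nearest neighbours of the 7 genes on either side, those other than *Shroom4* had at most 5.26% of their UMIs outside the 11 cells in this class. *H1foo*, of the maternal-effect list, likewise had 16 of its 30 outside UMIs in endothelial-like cells.

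**Figure D3:**
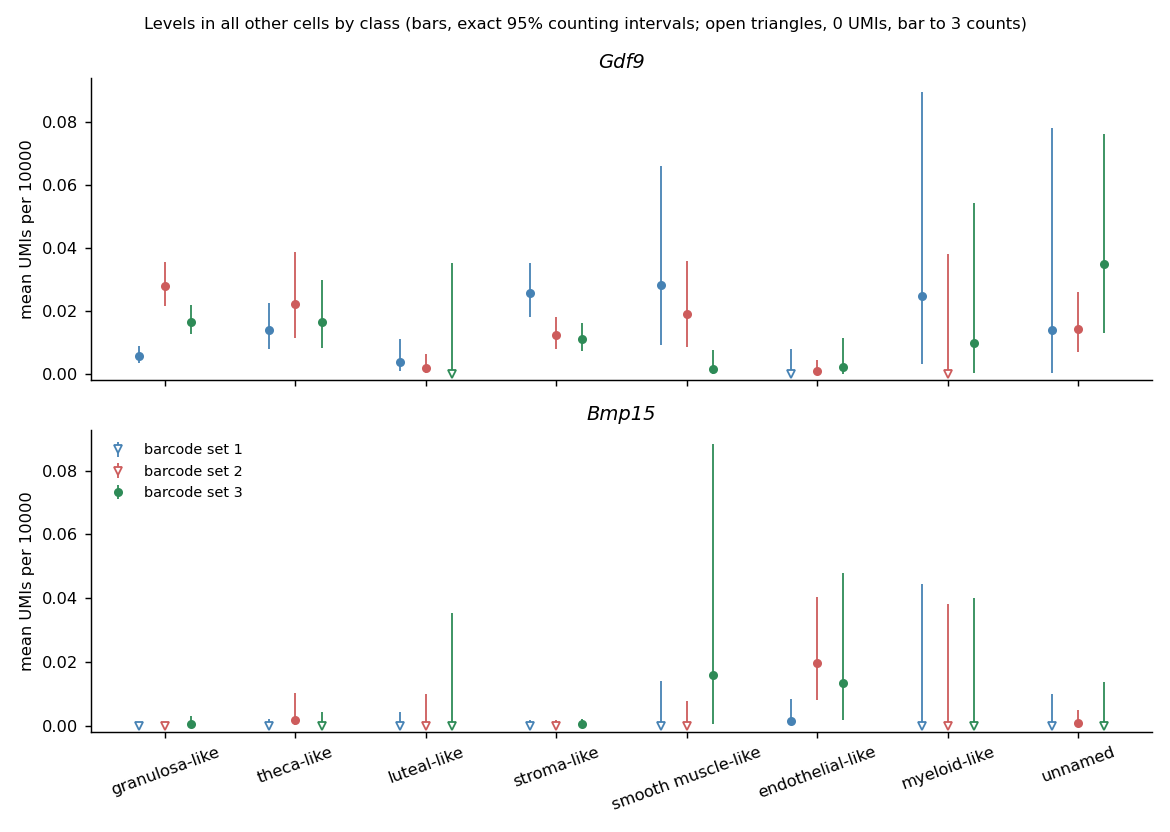
Points show the mean UMIs per 10000 of *Gdf9* (top) and *Bmp15* (bottom) in all cells but the 11, by class and barcode set (1 blue, 2 red, 3 green). Bars are exact 95% counting intervals of the summed UMIs, rescaled to the mean, with open triangles for 0 UMIs and a bar up to 3 counts. *Gdf9* was above 0 in granulosa-, theca- and stroma-like cells of every set, with granulosa-like set 1 at 0.00559 below sets 2 and 3, and *Bmp15* reached 0.0196 in endothelial-like cells of set 2.

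*Zp1*, *Zp2*, *Zp3* and *Dppa3* outside the 11 cells were few, 176 UMIs in 157 cells. Summed, they stood at 0.00480 UMIs per 10000 (0.00353 to 0.00638) in granulosa-like, 0.00340 (0.00170 to 0.00609) in theca-like, 0.00586 (0.00406 to 0.00819) in stroma-like and 0.00118 (0.000143 to 0.00428) in endothelial-like cells, and these 4 intervals overlapped. Smooth muscle-like cells, at 0.0138 (0.00690 to 0.0247) from 11 UMIs, had an interval above those of granulosa-, theca- and endothelial-like cells on this scale. Pooled, they were at 1.60 (0.784 to 2.94) times all other classes, and after thinning their share of cells, 0.381% (0.124 to 0.886%), overlapped the 0.113% (0.0620 to 0.190%) of granulosa-like cells. Luteal-like cells were at 0.00524 (0.00170 to 0.0122) and myeloid-like cells at 0.0104 (0.00284 to 0.0267). The unnamed cells were at 0.0851 (0.0651 to 0.109), with 61 of the 176 UMIs in a class that held 6.48% of all UMIs of the other cells. Of these 61 UMIs, 37 lay in 1 cluster of set 3 that was left unnamed because *Ooep* and *Dppa3* led it. The value of the unnamed class thus follows in part from the naming rule, which used *Dppa3* itself, and is a description.

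By barcode set, the UMIs outside for every 100 inside came to 5.06, 16.6 and 10.9 for sets 1 to 3. *Zp2* gave 4.85, 28.0 and 7.60 and *Dppa3* 4.69, 13.0 and 11.6 in the same order. *Zp3* had 4 UMIs outside beside 38 inside for set 1, 4 beside 16 for set 2 and 13 beside 97 for set 3. Set 2 had the highest value for each of the 3 genes, and it was also the set with the fewest UMIs inside, 313 against 632 in set 1 and 847 in set 3. As a mean over all other cells, the 4 genes stood at 0.0192 (0.0155 to 0.0235) in set 3, 0.00912 (0.00624 to 0.0129) in set 1 and 0.00765 in set 2. Pooled, the order of the lower sets turned, with set 2 at 1.81-fold (1.15 to 2.91) the level of set 1. The value of set 1 was 0.00334 over cells with fewer than 2 of the 7 genes, a choice that drops the cell of 625 UMIs with 3 of *Dppa3*.

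In set 3, 37 of the 92 outside UMIs of these 4 genes, or 40.2% (30.1 to 51.0%), lay in 1 cluster of 130 cells that held 1.08% of the set's other UMIs. *Ooep* and *Dppa3* were the leading genes of this cluster, though neither was used to form it. It was singled out for them after its values were seen, so what follows is a description. *Dppa3* had 28 UMIs in 23 of its cells, with at most 2 in a cell, and the pooled level was 69.6-fold (41.0 to 117) that of the other cells of set 3.

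*Zp2* had 5 UMIs there and 8 in the 11340 other cells, *Zp3* had 3 and 10, and *Zp1* had 1 and 0. *Gtsf1* had 12 and 13, *Nlrp5* 9 and 14 and *Ooep* 49 and 89. Of the further oocyte genes, *Dazl* had 5 and 16, *Figla* 2 and 4, *Zar1* 2 and 19 and *Padi6* 1 and 6. *Tle6* had 6 and 324, *Ddx4* 8 and 716 and *Npm2* 0 and 20. The ratios of *Padi6*, *Tle6* and *Ddx4* had intervals that covered 1, so not all oocyte genes were raised. *Gdf9* was less raised than *Dppa3*, with 4 UMIs and a ratio of 3.79 (1.01 to 10.0), whose interval lay below that of *Dppa3*. *Bmp15* was at 0.

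This cluster met 3 stroma markers and stayed unnamed because of its leading genes. *Inha*, a GC marker, was above 0 in 126 of its 130 cells and in 8073 of the 11340 others, and its pooled level was 1.44 times theirs. *Dcn*, a stroma marker, stood at 0.700 times (0.603 to 0.808) and *Cyp17a1*, the theca androgen enzyme, at 0.313 times (0.219 to 0.433) the rest. *Hbb-bs*, a haemoglobin gene, stood at 4.52 times (3.59 to 5.63) the level of the rest of the set and the nuclear RNA *Malat1* at 0.229 times (0.222 to 0.236). The cells had a median of 3419 UMIs. The part of depth, of blood RNA or of mixed cells in the oocyte UMIs of this cluster was not tested. Without the cluster, the mean of the 4 genes in set 3 was 0.0107, inside the interval of set 1 (0.00624 to 0.0129) on this scale. Pooled, the other cells of set 3 stood at 0.00649 and those of set 1 at 0.00394. The mean of set 1 was itself 0.00334 over cells with fewer than 2 of the 7 genes.

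**Figure D4:**
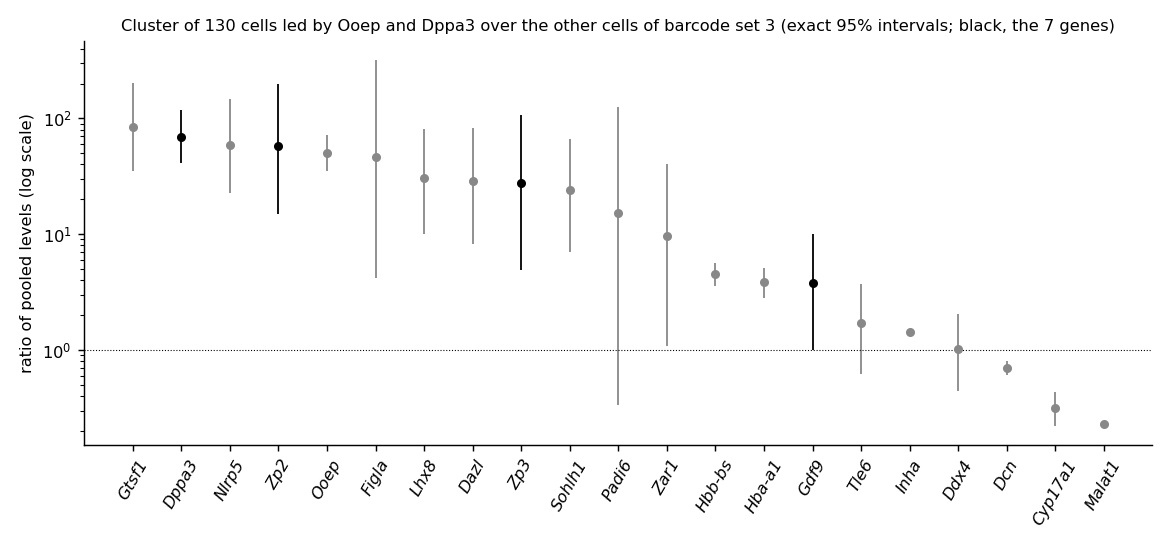
Points show, on a log scale, the ratio of pooled levels in the cluster of 130 cells to those in the other cells of barcode set 3, with exact 95% intervals, for 4 of the 7 genes (black) and for oocyte and other marker genes (grey). *Bmp15*, *Zp1*, *Oosp1* and *Npm2* have no ratio, since the cluster or the rest had 0 UMIs. *Dppa3*, *Zp2* and *Zp3* stood at 69.6-fold (41.0 to 117), 57.5-fold (14.8 to 199) and 27.6-fold (4.88 to 107), with intervals that overlapped those of *Gtsf1* and *Nlrp5*, while *Ddx4* at 1.03 and *Inha* at 1.44 lay near 1 and *Malat1* at 0.229 was the lowest of the plotted ratios.

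Of 11 receptors and SMADs of the GDF9 and BMP15 pathway, 0 had 50% of their UMIs in the 11 cells, where 0.334% of all genes did. Their median share was 0.169%, beside the 0.145% of all UMIs that these cells held. Pooled levels in the 11 cells were above those of the other cells for some, such as *Smad4* with 1.64 against 0.913 UMIs per 10000 and *Smad3* with 0.805 against 0.189, and below for others, such as *Bmpr2* with 0.892 against 3.50. Granulosa-like cells held 40.7% of all UMIs outside the 11 cells. *Bmpr2*, the shared type II receptor, had 58309 of its 83956 other UMIs in granulosa-like cells, *Tgfbr1*, the type I receptor used by GDF9, 13351 of 22725 and *Bmpr1b*, used by BMP15, 14257 of 17831. These were shares of 69.5, 58.8 and 80.0%. The common SMAD, *Smad4*, had 45.6%, and *Bmpr1a*, *Smad1* and *Smad5* had 39.2, 32.7 and 35.1%, below the share of all UMIs.

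Of 10 GC genes known to respond to these ligands, 0 reached 50%, with a median share of 0.00867%. In the 11 cells *Kitl* had 26 UMIs in 3 cells, *Lhcgr* 10 in 4 and *Tnfaip6* 6 in 4, and *Has2*, *Grem1* and *Npr2* had 1 each. *Tnfaip6*, a hyaluronan-linking protein of cumulus expansion, had 325, 32056 and 10178 UMIs in the other cells of sets 1 to 3, *Grem1*, a BMP antagonist, 20616, 7775 and 2370, and *Lhcgr*, the luteinizing hormone receptor, 24457, 8754 and 2231. Of the *Lhcgr* UMIs outside, 18801 of 35442 were in theca-like cells, which numbered 1272, 503 and 666 in the sets. *Kitl*, which signals back to the oocyte, had 9856, 15330 and 6146. No order over time is drawn from these totals, since no set has a time.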

How the data were processed

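The deposited table holds natural log values, ln(1 + UMIs per 10000 UMIs of the cell), which the authors made from 10x Chromium libraries; the submitters' processing notes name mm10, Cell Ranger and Seurat, with versions not given in the sources used here. Taken out of logs, the values summed to 10000 per cell. To recover UMIs, they were divided by the smallest value above 0 of the same cell, which was taken to be 1 UMI. By this step 100% of 80167176 values came out whole within 0.01, giving 240030587 UMIs, 500 to 133658 per cell. No cell or doublet was removed here, and no doublet caller was run.

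Cells could not be tied to the 3 labelled libraries, so the table was treated as 1 sample. The report therefore holds no p-values. Shares carry exact Clopper-Pearson 95% intervals and ratios of pooled levels exact conditional ones. For means over cells, the exact Poisson 95% interval of the summed UMIs was rescaled to the mean. This leaves out the unequal weight of UMIs from deep and shallow cells, so it can be too narrow. For means over cells, a count of 0 has a limit of 3 counts, in the text and in the plot of levels. Levels are means over cells of UMIs per 10000 unless called pooled (summed UMIs over summed totals). Shares of cells were also computed after seeded thinning to 3000 UMIs, with shallower cells left out. UMIs are counted molecules, and intervals cover counting error only.

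Each barcode set was clustered with 2000 variable genes (members and oocyte lists left out), 30 principal components, 15 neighbours and Louvain resolution 1 (python-igraph 0.11.9 and scikit-learn 1.9.0 under Python 3.11.15, with intervals from scipy 1.17.1 and arrays in numpy 2.4.6). A cluster was named "X-like" from 3 or more markers at 0.3 or more of the highest cluster, and a mean marker level of 0.25 or more, unless its leading genes or a low depth went against the name. These thresholds were 0.4 and 0.35 at first. They were loosened after the clusters, with the counts of the 7 genes in them, had been seen, and a condition on the leading genes of luteal-like clusters was added. A later change left the cluster led by *Ooep* and *Dppa3* unnamed. Alternatives covered the rule for cells, depth, scale, clustering and gene thresholds.

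The members and lists were chosen with earlier results of these data known. Named genes were the 7 genes, up to 4 genes of most UMIs per list, list genes with 50% or more of UMIs in the 11 cells, the 15 other genes with the highest such share and at least 50 UMIs, and cell type markers. Neighbouring genes, the leading genes of clusters, genes of the cluster of 130 cells, *Bmpr1a*, *Smad1*, *Smad3*, *Smad5*, *Has2*, *Npr2*, *Fbxo43*, *Ccnb3* and *Zp3r* were chosen after their values were seen. Coordinates are from GENCODE on GRCm38. The share calculation was tested on simulated data.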

Additional observations from a re-analysis of the deposited data

How the results depend on the processing

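Of 115 alternative values for 25 reported values, 72 stayed within the counting interval, or within 1.5 times for a count, and 43 moved. The share of UMIs in the chosen cells moved from 78.7% to 76.4 and 74.8% with cells of 4 or more and 5 or more genes, to 38.3% summed as UMIs per 10000, 17.6% as summed log values and 32.0% after thinning. The 11 cells became 22 at 2 or more genes (7 in set 1, 11 in set 3), 7 at 5 or more (1 in set 2, 3 in set 3) and 7 after thinning (1 in set 1, 3 in set 3), and set 3 had 3 at 4 or more genes or at 2 UMIs per gene. *Dppa3* had 91.5% in cells chosen by 2 of the other genes and 86.6% by 4. With 200 or more UMIs, 6 listed genes passed in place of 15. After thinning, *Gdf9* was 4.90% of the UMIs inside and 47.9% outside. Outside the 11 cells, *Gdf9* as mean log values was 0.00701, 0.0104 and 0.00756 in sets 1 to 3 and 0.00902, 0.0107 and 0.00853 in granulosa-, theca- and stroma-like cells, a scale that is lower by construction. Without the 50 most abundant genes in the totals it was 0.0178, 0.0236 and 0.0178 by set, 0.0204 in granulosa- and 0.0211 in stroma-like cells, higher by construction, and pooled it was 0.00997 in set 1. *Zp1* to *Zp3* and *Dppa3* summed were 0.00269, 0.00443 and 0.00740 as log values, 0.0101 in set 2 and 0.0245 in set 3 without the 50 genes, and pooled 0.00394 in set 1 and 0.0107 in set 3. In set 1 they were 0.00334 over cells with fewer than 2 of the genes and 0.00467 outside the clusters that hold the 11 cells. The 4 added alternatives were chosen after seeing the data: without the cluster led by *Ooep* and *Dppa3*, the sum in set 3 was 0.0107, and leaving out cell 3d, naming that cluster stroma-like and the first naming rule left the values they touch within their intervals (*Gdf9* in stroma-like cells 0.0172 and 0.0162). No paired analysis was possible because each group has 1 library and no test was run. With 23 UMIs of *Bmp15* and 3 of *Oosp1* in the table, their shares have wide counting intervals.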
